A study of Homo sapiens with 12 samples.

Results

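The SWI/SNF subunit genes are the 31 genes that encode the subunits of the mammalian BAF, PBAF and non-canonical BAF chromatin remodelling complexes. They were taken by name, out of 20046 protein-coding genes of the GENCODE v44 annotation, and the rule used no measured value. For each gene, all accessible 100-bp bins within 10 kb of any of its annotated transcription start sites (TSSs) were summed, on the GRCh38 coordinates of the deposited tables. This window held at least 1 bin for 31 members in the table of DU-145 cells (1593 member bins in 127 accessible regions, of 79177 regions in all) and for 30 members in the table of BT-549 cells (1273 bins in 90 regions, of 46298). ACTL6B had no bin in BT-549 and is not measured there.

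SWI/SNF complexes use the energy of ATP, through a SMARCA4 (BRG1) or SMARCA2 (BRM) motor, to slide or evict nucleosomes and so open promoters and enhancers to transcription factors. The motor and core SMARCC and SMARCD proteins combine with ARID1A or ARID1B and a DPF protein in canonical BAF. In PBAF they combine with PBRM1, ARID2, PHF10 and BRD7, and in non-canonical BAF with BICRA or BICRAL and BRD9. SMARCB1 and SMARCE1 are core subunits of canonical BAF and PBAF. Several of these genes, ARID1A, SMARCA4 and PBRM1 among them, are recurrently mutated in human carcinomas.

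The study profiled chromatin accessibility by ATAC-seq, which reads where the Tn5 transposase can insert into DNA, in DU-145, a castration-resistant prostate cancer line, and BT-549, a triple-negative breast cancer line. Per the study's methods, both lines carried a tetracycline-inducible short hairpin RNA against MUC1, which encodes an oncogenic transmembrane mucin whose C-terminal subunit acts in the nucleus. In each line, 3 libraries came from cells treated with doxycycline (DOX), which switches the hairpin on, and 3 from cells given the DMSO vehicle, which the sample labels call untreated. No cells with a control hairpin were analysed here, so loss of MUC1 and DOX itself cannot be told apart. The study's methods call the replicates biologically independent, while the labels do not say from which cultures they came, so p-values measure the spread between these samples.

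The bin values of a library, in units of 1000000, summed to between 12.37 and 24.0 for vehicle and 16.34 and 25.23 for DOX in DU-145. In BT-549 the sums were lower, between 9.143 and 13.61 for vehicle and 2.503 and 3.267 for DOX. Depth in BT-549 therefore moved with treatment, without overlap, and its part in the BT-549 results was not tested. The MUC1 window itself held 93.5, 102 and 91.6 CPM (coverage per 1000000 of the library's sum) in DU-145 vehicle and 80.4, 88.6 and 86.4 in DOX, and 184, 218 and 182 against 187, 197 and 171 in BT-549. A hairpin acts on the transcript, so these accessibilities do not check the knockdown, and no RNA was analysed. Called peaks stood at the TSSs of 6 of 6 epithelial and 4 of 6 mesenchymal marker genes (VIM, ZEB1, ZEB2 and FN1) in all DU-145 libraries, while in BT-549 peaks in all libraries covered 6 of 6 mesenchymal and 0 of 6 epithelial markers, although 1 epithelial marker alone (KRT19) lacked a peak in every BT-549 library. None of the 3 leukocyte markers had a peak in all libraries of either line. Accessibility, not expression, was measured throughout.

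Nearly every subunit promoter was accessible in both lines. A peak whose summit lay within 1 kb of a member's TSS was called for 27 to 30 of 31 members in the DU-145 libraries, for 30 in each BT-549 vehicle library and for 26 to 28 in the shallower BT-549 DOX libraries. ACTL6B, the neuron-specific actin-like subunit, lacked such a peak in all 12 libraries. BICRAL lacked one in the 3 BT-549 DOX libraries by the position of the summit, but had a peak in 3 of 3 when any base of a peak within 1 kb counted. BICRAL also lacked a summit in DU-145 vehicle replicate 2 and DOX replicates 1 and 2. ARID2 lacked one in DU-145 vehicle replicate 2 and the 3 DU-145 DOX libraries. In these DU-145 libraries both genes had a peak when any base counted. The peak counts are not set beside a share of all genes. Per accessible bin, the highest level in DU-145 vehicle was that of SS18 (6.8 CPM per bin), then ACTL6A (6.13), and the lowest was BRD7 (0.707). In BT-549 vehicle the order began with ACTL6A (7.38) and SS18 (3.26) and ended with BCL7A (0.75).

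In DU-145 cells, DOX changed the accessibility of 14 subunit genes, 4 upward and 10 downward. DPF3 and PHF10, which encode histone-reading subunits of canonical BAF and PBAF, gained the most. SS18, BICRAL, ACTB, ARID2 and ACTL6A lost the most, whereas the motor genes SMARCA4 and SMARCA2 and the tumour suppressor genes ARID1A and PBRM1 did not pass the test. The share called higher was 12.9% against 16.3% of all gene windows, and the share called lower 32.3% against 33.3%, at a Benjamini-Hochberg adjusted p under 0.05 over 16969 genes by the quasi-likelihood test of edgeR. The median log2 change of the members was -0.09, and that of all genes was also -0.09. Of 6516 genes of similar coverage, 45.2 to 121 CPM, 11.6% were higher and 44% lower, with a median of -0.15. The list as a whole therefore sat near the background, and the result lies in the single genes.

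Among the subunits of canonical BAF, 1 of 7 rose and 1 fell. The DPF3 window held 36.5, 38.6 and 33.6 CPM in the vehicle libraries and 56.1, 60.2 and 57.1 CPM in the DOX libraries. The groups were far apart, and the log2 change was 0.67 ± 0.09 (SE, n = 3 per group here and below, adjusted p = 1e-07). SS18, a transcriptional coactivator subunit that is fused in synovial sarcoma, held 151, 139 and 139 CPM with vehicle and 107, 107 and 106 CPM with DOX. It fell by 0.42 ± 0.06 on the log2 scale (adjusted p = 1.48e-06), with no overlap. ARID1A, the DNA-binding subunit that defines most canonical BAF, held 128, 137 and 139 CPM with vehicle and 130, 157 and 148 CPM with DOX. These overlapped, and its log2 change of 0.11 ± 0.07 missed the threshold (adjusted p = 0.196), as did those of ARID1B (-0.06), DPF1 (-0.16), DPF2 (-0.11) and SS18L1 (-0.09).

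PBAF genes split in direction, with 2 of 4 higher and 1 lower. PHF10 held 49.6, 40.6 and 40.3 CPM with vehicle against 64.9, 59.7 and 63.1 CPM with DOX, a log2 change of 0.53 ± 0.09 (adjusted p = 8.28e-06) without overlap. ARID2, the DNA-binding subunit of PBAF, held 141, 144 and 135 CPM against 110, 110 and 104 CPM. It fell by 0.37 ± 0.06 (adjusted p = 9.21e-06), and the 3 DOX libraries lay below all vehicle libraries. BRD7, a bromodomain subunit, held 40.5, 42.6 and 42.1 CPM against 49.6, 46.8 and 52.5 CPM, with a log2 change of 0.25 (adjusted p = 0.0188) that was lost without vehicle replicate 1 or DOX replicate 3. With bins within 1 kb of its TSSs, the BRD7 value was 0.02 (adjusted p = 0.9). PBRM1, the polybromo subunit, was at 79.4, 76.7 and 73.4 CPM against 71.9, 71.2 and 76.8 CPM, and its log2 change of -0.06 ± 0.08 was not called (adjusted p = 0.52).

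In non-canonical BAF, BICRAL fell while its paralogue BICRA was not called. BICRAL held 31.0, 32.5 and 32.1 CPM with vehicle and 23.8, 25.9 and 23 CPM with DOX, and fell by 0.39 ± 0.10 (adjusted p = 0.00186). BICRA had a log2 change of 0.13 that was not called. BRD9, the bromodomain subunit of this complex, held 44.9, 40.1 and 40.9 CPM against 46.6, 48.5 and 56.2 CPM, a log2 change of 0.27 ± 0.09 (adjusted p = 0.0137). The groups did not overlap, yet the call was lost without vehicle replicate 2 or DOX replicate 3, and with bins within 1 kb of the TSSs alone the value was -0.03. Without DOX replicate 3, only 2 members were called higher, DPF3 and PHF10.

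Of the shared subunits, none rose and 7 fell. ACTB, which encodes the beta-actin that is also a SWI/SNF subunit, held 335, 390 and 382 CPM with vehicle and 267, 304 and 281 CPM with DOX, and fell by 0.38 ± 0.06 (adjusted p = 4.95e-06). ACTL6A, the actin-like BAF53A, held 169, 157 and 170 CPM against 135, 122 and 132 CPM and fell by 0.35 ± 0.06 (adjusted p = 2.4e-05). In both genes all DOX libraries lay below all vehicle libraries. BCL7B and BCL7C, small accessory subunits, fell by 0.29 (adjusted p = 0.0012) and 0.30 (adjusted p = 0.00389), while BCL7A, at -0.04, was not called. The 3 SMARCD genes, alternative core subunits, fell by 0.26 (SMARCD1), 0.22 (SMARCD2) and 0.16 (SMARCD3), with overlap of the groups at SMARCD1 and SMARCD2. The core genes SMARCB1 (0.04), SMARCC1 (-0.13), SMARCC2 (0.12) and SMARCE1 (-0.07) were not called, nor were the developmental zinc finger subunits BCL11A (0.14) and BCL11B (-0.10).

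Neither motor gene changed detectably in DU-145. SMARCA4 was at 43.9, 44.6 and 45.9 CPM with vehicle and at 48.4, 48.0 and 44 CPM with DOX, a log2 change of 0.06 ± 0.09 (adjusted p = 0.577). SMARCA2 had a log2 change of 0.14. ACTL6B rested on 5 bins in a single region, in a window it shares with TFR2, at 4.43, 4.4 and 3.61 CPM against 3.17, 3.29 and 3.05 CPM, and was not called (-0.40 ± 0.22, adjusted p = 0.128).

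The direction of the DU-145 changes depended in part on scaling. With TMM normalisation, which sets the median over all gene windows to 0.00, 9 members were higher and 7 lower, beside 22.7% and 23% of all genes. ARID1A, BCL11A, BICRA, SMARCA2 and SMARCC2 joined the higher genes, and the 3 SMARCD genes were no longer called lower. DPF3 and PHF10 stayed higher, and SS18, ACTB, ARID2 and ACTL6A stayed lower, in all 18 alternative analyses.

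**Figure D1:**
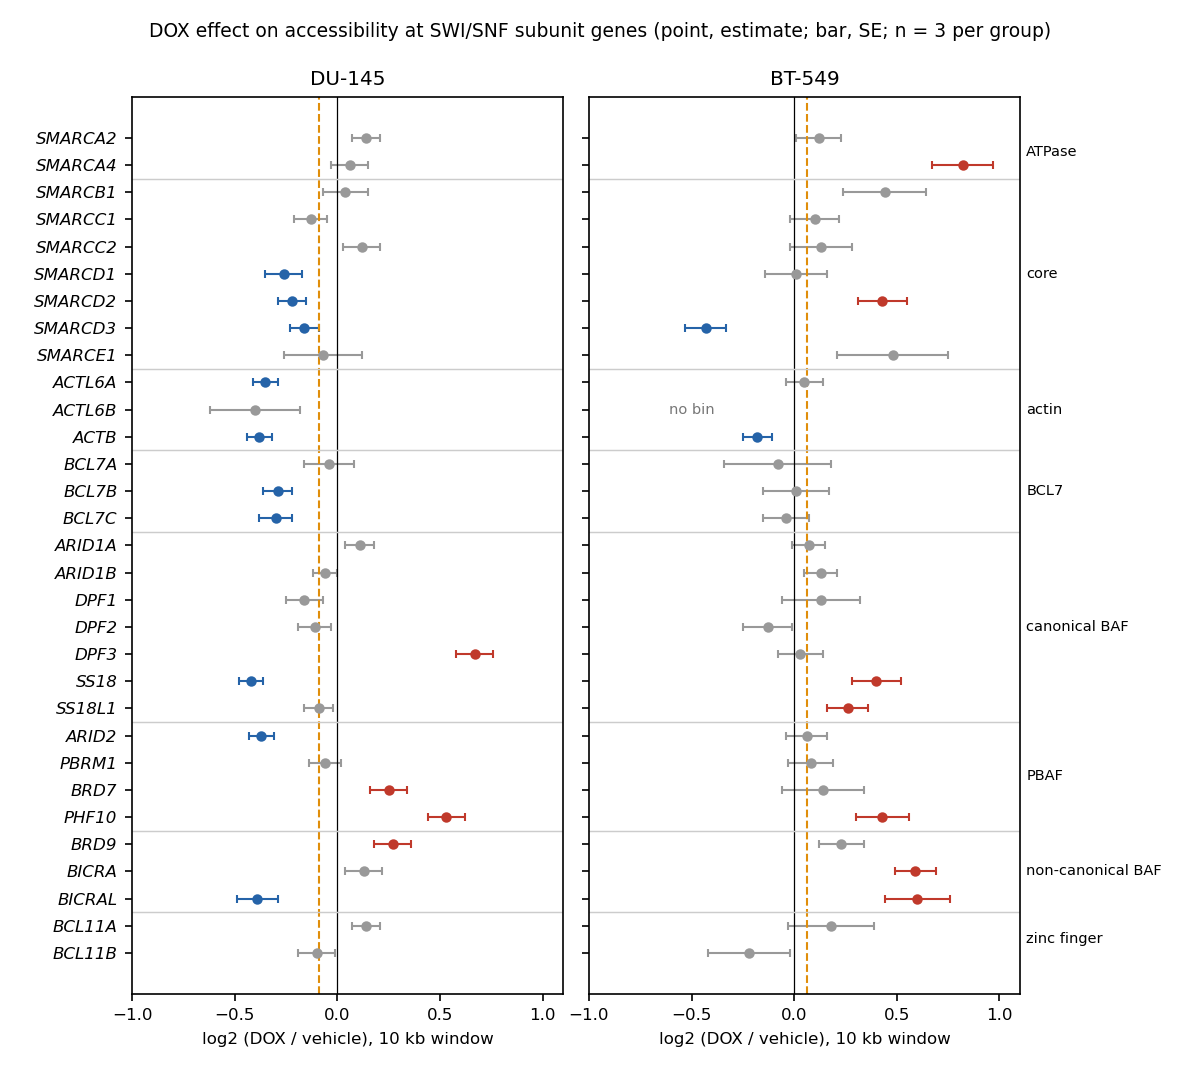
Log2 change of window coverage, DOX against vehicle, for each subunit gene ordered by its place in the complexes, with DU-145 on the left and BT-549 on the right; points are edgeR estimates, bars their SE, red and blue mark genes called higher and lower, and the dashed line is the median of all genes. DPF3 (0.67) and PHF10 (0.53) lie farthest right in DU-145, SMARCA4 (0.82) in BT-549, and ACTL6B has no bin in BT-549.

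In BT-549 cells, DOX changed 9 subunit genes, 7 upward and 2 downward. The motor gene SMARCA4 gained the most, followed by the non-canonical BAF genes BICRAL and BICRA, and SMARCD2, PHF10, SS18 and SS18L1 also rose. SMARCD3 and ACTB fell. The share called higher was 23.3% of the 30 measured members against 18.4% of all gene windows, and the share called lower 6.67% against 10.3%. The members' median log2 change was 0.12, that of all 15606 genes 0.06, and that of 6289 genes of similar coverage (39.9 to 105 CPM, 21.0% higher and 9.51% lower) 0.08. After a correction for GC content, 3 members remained called higher in place of 7.

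The SMARCA4 window held 37.2, 41.8 and 29.9 CPM in the vehicle libraries and 72.6, 65.1 and 56.1 CPM in the DOX libraries. The groups were well separated, with a log2 change of 0.82 ± 0.15 (adjusted p = 3.59e-05). The other motor gene, SMARCA2, was at 0.12 and was not called. SMARCD2 held 66.4, 64.6 and 64.8 CPM against 84.1, 106 and 74.7 CPM, a log2 change of 0.43 ± 0.12 (adjusted p = 0.00708) that was lost with GC correction and without DOX replicate 2. Its paralogue SMARCD3, the heart-enriched alternative subunit, went the other way, from 135, 125 and 141 CPM to 113, 89.8 and 94.8 CPM, and fell by 0.43 ± 0.10 (adjusted p = 0.00138) with no overlap. SMARCB1, whose loss defines rhabdoid tumours, was not called (0.44 ± 0.20, adjusted p = 0.0981), with 1 high DOX library at 46.0 CPM and the other two at 23.8 and 23.7, close to the vehicle libraries at 20.8, 25.8 and 21.7.

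Among the non-canonical BAF genes, 2 of 3 rose. BICRA held 85.5, 93.3 and 76.3 CPM with vehicle and 122, 135 and 126 CPM with DOX, a log2 change of 0.59 ± 0.10 (adjusted p = 3.71e-05) without overlap. BICRAL held 29.8, 43.1 and 39.2 CPM against 42.8, 56.8 and 68.8 CPM, a log2 change of 0.60 ± 0.16 (adjusted p = 0.0035). Here the lowest DOX library lay within the vehicle range, and the call was lost without vehicle replicate 1 or DOX replicate 3. BRD9, at 78.7, 83.4 and 86.7 CPM against 96.9, 92.9 and 101 CPM, was not called (0.23 ± 0.11, adjusted p = 0.107) although its groups did not overlap.

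In canonical BAF and PBAF, SS18, SS18L1 and PHF10 rose. SS18 held 66.0, 54.1 and 56.0 CPM with vehicle and 86.2, 73.2 and 73.3 CPM with DOX, a log2 change of 0.40 ± 0.12 (adjusted p = 0.0144). PHF10 held 51.0, 45.5 and 61.0 CPM against 77.8, 65.4 and 68.7 CPM, a log2 change of 0.43 ± 0.13 (adjusted p = 0.012). Both rose without overlap, but both calls were lost with GC correction. That of SS18 was also lost with loess and without vehicle replicate 2, vehicle replicate 3 or DOX replicate 1, and that of PHF10 without vehicle replicate 1, vehicle replicate 2 or DOX replicate 1. SS18L1, a neuronal paralogue of SS18, had a log2 change of 0.26 ± 0.10 (adjusted p = 0.0478) from 118, 134 and 125 CPM to 136, 178 and 138 CPM, a call that was lost with TMM, RLE, DESeq2, limma-trend, GC correction and loess, and without vehicle replicate 1, vehicle replicate 3 or DOX replicate 2. ARID1A (271, 299 and 273 CPM against 257, 311 and 318), PBRM1 (106, 90.6 and 98.2 CPM against 110, 95.5 and 105) and DPF3 (85.3, 92.2 and 81.9 CPM against 86.7, 93.4 and 85.9) overlapped between the groups and were not called.

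ACTB, the member with the most coverage, held 611, 676 and 621 CPM with vehicle and 572, 560 and 554 CPM with DOX, and fell by 0.18 ± 0.07 (adjusted p = 0.0482). That call was lost on leaving out any 1 of the 6 libraries, and with bins within 1 kb of the TSSs the sign turned to 0.26. SMARCA4, BICRA and SMARCD3 kept their calls in all 18 alternative analyses. The other measured members were not called. Their log2 changes were 0.10 for SMARCC1, 0.13 for SMARCC2, 0.01 for SMARCD1 and 0.48 ± 0.27 for SMARCE1 in the core, 0.05 for ACTL6A, and -0.08, 0.01 and -0.04 for BCL7A, BCL7B and BCL7C. ARID1B and DPF1 were both at 0.13, DPF2 at -0.13, ARID2 at 0.06, BRD7 at 0.14, BCL11A at 0.18 and BCL11B at -0.22.

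**Figure D2:**
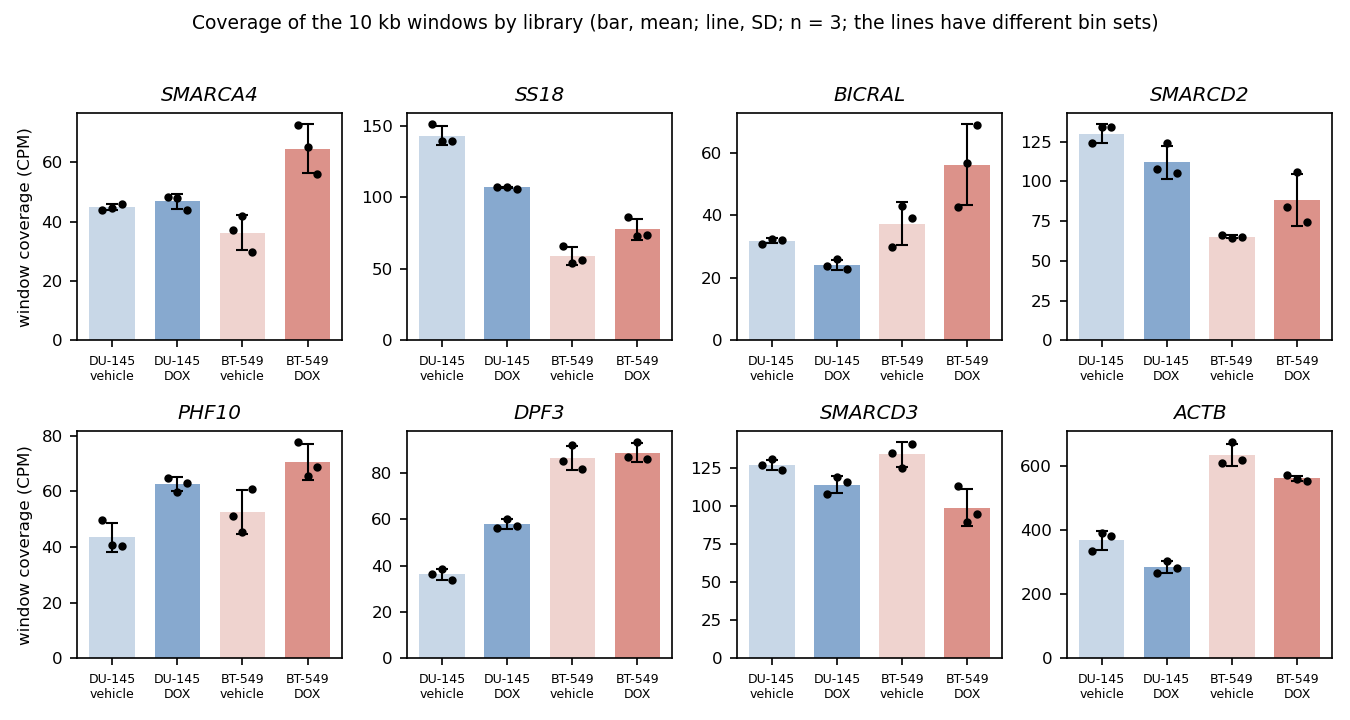
Window coverage in CPM of 8 subunit genes (SMARCA4, SS18, BICRAL, SMARCD2, PHF10, DPF3, SMARCD3 and ACTB) in the 4 groups; bars are means, error bars SD and dots the 3 libraries. SS18 falls from 139 to 151 CPM to 106 to 107 CPM with DOX in DU-145 and rises in BT-549, and DPF3 rises in DU-145 and is not called in BT-549.

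A window sums promoters with other elements, so contiguous regions were also tested one by one. Among the elements reported here, strong changes in DU-145 lay outside the canonical promoters, at DPF3 and SMARCC1, which gained accessibility, and at BCL11A, which lost it. Of 127 member regions, 32 opened (25.2% against 37.1% of all regions) and 29 closed (22.8% against 17.4%). Near a TSS of the member, within 1 kb, 8 of 52 opened (15.4% against 15.5% of all regions at a TSS) and 18 closed (34.6% against 31.6%). Farther away, 24 of 75 opened (32.0% against 43.6%) and 11 closed (14.7% against 13.1%). The median log2 change was 0.07 for member regions and 0.24 for all regions. TMM normalisation moved the latter to 0.05, and 21 member regions then opened and 41 closed, beside 30.0% and 25.5% of all regions. Opening regions lay in the windows of 15 members, closing regions in those of 18, and 8 members had both.

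3 of the 4 DU-145 elements with the largest gains, and the element with the largest loss, are printed here as 200 bases each. These are the bases at the bin of highest coverage (GRCh38, plus strand, 5′ to 3′). The second DPF3 stretch lies outside the summed DPF3 window. Capitals mark the AP-1 motif TGAGTCA and the TEAD motif GGAATG on either strand.
DPF3, chr14:72745651-72745850: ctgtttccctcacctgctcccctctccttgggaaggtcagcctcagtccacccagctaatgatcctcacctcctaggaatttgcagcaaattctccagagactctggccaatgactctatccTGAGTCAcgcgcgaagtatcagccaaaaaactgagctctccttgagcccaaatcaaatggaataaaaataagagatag
DPF3, chr14:72665351-72665550: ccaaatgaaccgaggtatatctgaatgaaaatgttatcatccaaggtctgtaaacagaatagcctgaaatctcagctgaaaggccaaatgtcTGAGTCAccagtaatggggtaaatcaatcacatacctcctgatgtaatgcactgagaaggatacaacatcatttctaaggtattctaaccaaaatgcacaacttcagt
SMARCC1, chr3:47617751-47617950: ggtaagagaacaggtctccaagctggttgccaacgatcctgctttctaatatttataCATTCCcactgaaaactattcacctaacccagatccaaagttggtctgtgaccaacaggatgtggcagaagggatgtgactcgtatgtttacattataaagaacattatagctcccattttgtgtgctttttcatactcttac
BCL11A, chr2:60476451-60476650: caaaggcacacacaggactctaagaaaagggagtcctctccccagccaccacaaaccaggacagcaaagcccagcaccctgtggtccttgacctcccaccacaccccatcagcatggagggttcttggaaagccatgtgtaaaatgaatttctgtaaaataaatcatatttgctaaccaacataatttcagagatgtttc

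Of the ARID1A elements reported here, chr1:26705401-26706500 opened 1.99-fold and chr1:26771101-26772300 opened 1.33-fold, and 2 closed. These are not all the opening elements of that window.

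DPF3 opened at 6 regions, its promoter among them (1.27-fold). The intronic element at chr14:72745501-72746200, 148.3 kb from the canonical TSS, held 1.44, 0.435 and 0.226 CPM with vehicle and 7.39, 6.55 and 6.81 CPM with DOX (log2 change 3.36 ± 0.32, adjusted p = 5.85e-11). A second intronic element, chr14:72665101-72665800, of which 1 of 7 bins lies inside the window, held 1.39, 1.12 and 1.46 CPM against 12.9, 10.4 and 11.7 CPM (3.17 ± 0.22, adjusted p = 2.73e-14). At both elements every DOX library exceeded every vehicle library several-fold. The SMARCC1 intron element (chr3:47617801-47618200) was weak with vehicle, at 0.057, 0.275 and 0.0703 CPM, and held 1.79, 1.34 and 1.23 CPM with DOX (2.99 ± 0.52, adjusted p = 8.33e-06).

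BCL11A, a zinc finger repressor known for silencing fetal globin, had opposite changes inside one gene. Its intronic element at chr2:60476001-60476900 held 9.39, 7.12 and 7.45 CPM with vehicle and 0.878, 0.823 and 1.26 CPM with DOX, and fell by 3.0 ± 0.25 (adjusted p = 2.4e-12). A second intronic element, chr2:60480401-60480700, held 2.4, 1.46 and 1.86 CPM against 0.907, 0.501 and 0.348 CPM and fell by 1.71 ± 0.39 (adjusted p = 0.000373). The BCL11A promoter region opened 1.38-fold, and the sum over the window was not called. Smaller losses were found at elements of BICRAL (chr6:42819801-42820200, 1.98, 1.98 and 1.82 CPM against 1.05, 1.02 and 0.288 CPM) and ARID1B (chr6:157187201-157187700, 4.97, 6.32 and 4.47 CPM against 2.36, 2.1 and 2.43 CPM). These elements of DPF3, SMARCC1, BCL11A, BICRAL and ARID1B kept their calls in 8 of 8 alternative analyses.

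More member promoters closed than opened in DU-145, at a share near that of all regions at a TSS (above), and many were not called. The ACTB gene body region (chr7:5522901-5527300) held 57.1, 74.3 and 70.0 CPM with vehicle and 26.9, 33.9 and 32.3 CPM with DOX, and fell by 1.11 ± 0.10 (adjusted p = 1.8e-11). The promoter regions of BCL7C (-0.46), SS18 (-0.42), SMARCD1 (-0.39), ARID2 (-0.37), ACTL6A (-0.36), BCL7B (-0.35) and BICRAL (-0.35) closed, as did the shared promoters of PBRM1 with GNL3 (-0.44) and of SS18L1 with PSMA7 (-0.28). PHF10 (0.52) and BCL11A (0.46) were among the exceptions that opened. The 4 regions that opened in the BRD9 window, by 0.64 to 1.42, lie nearest to the TSS of another gene, ZDHHC11. At the cutoffs of the study's methods for single bins (2-fold, adjusted p under 1e-05), 21 member bins opened, in ARID1A, BRD7, DPF3, PHF10, SMARCC2 and SS18L1, and 32 closed, in ACTB and BCL11A. The study used these cutoffs with DESeq2. Here they were used with edgeR and library sums, so the bins called are not those of the study. Of all bins, 5.0% opened and 1.59% closed.

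**Figure D3:**
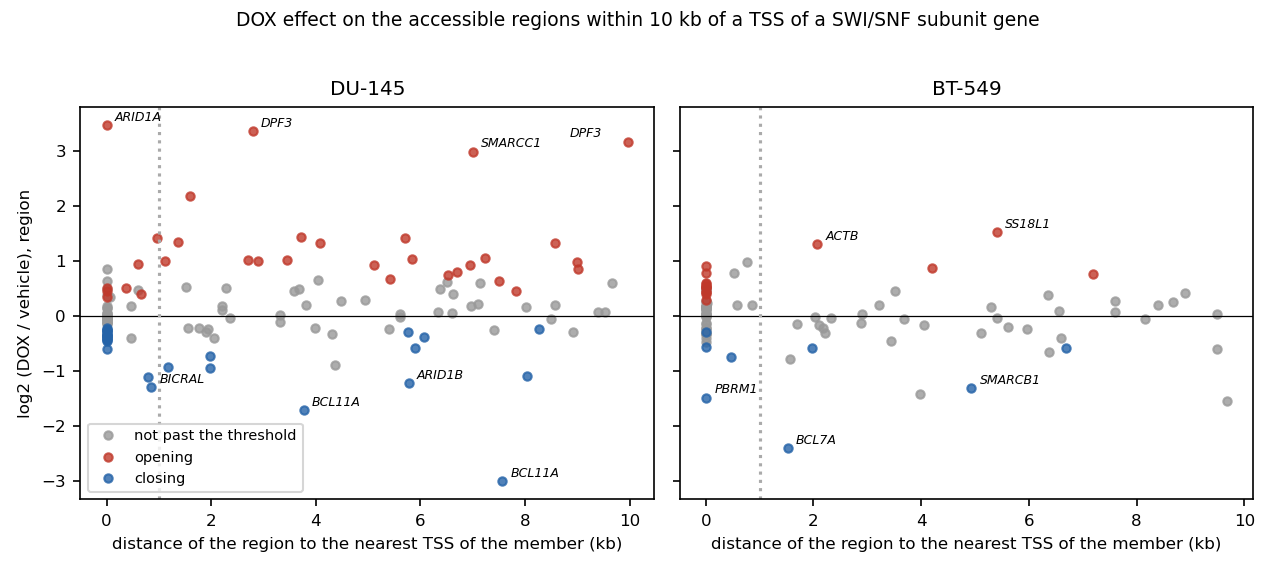
Log2 change of each accessible region of the members, DOX against vehicle, plotted against its distance in kb from the nearest TSS of the member, for DU-145 and BT-549; red regions opened, blue regions closed, grey ones were not called, and the dotted line stands at 1 kb. In DU-145, 18 of 52 regions within 1 kb closed and 24 of 75 farther ones opened.

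In BT-549 the promoters were where most member regions opened. SMARCA4, SMARCB1, SMARCD2, ARID1A and BICRA gained at their promoters, as did ARID1B. Elements in the windows of ACTB, ARID1B, BCL7A, PBRM1, SMARCB1, SMARCC1 and SMARCD3 lost accessibility. Of 90 member regions, 16 opened (17.8% against 12.2% of all regions) and 8 closed (8.89% against 18.0%). Within 1 kb of a TSS, 12 of 49 opened (24.5% against 16.7%) and 4 closed (8.16% against 8.78%), and farther away 4 of 41 opened (9.76% against 9.81%) and 4 closed (9.76% against 22.8%). The median log2 change was 0.04 for member regions and -0.10 for all. TMM normalisation brought the latter to 0.00, with 18 member regions opening and 5 closing, beside 15.9% and 14.8% of all regions.

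The SMARCA4 promoter region (chr19:10960201-10961700) held 33.1, 33.6 and 25.8 CPM in the vehicle libraries and 68.9, 55.5 and 50.6 CPM in the DOX libraries, a log2 change of 0.91 ± 0.15 (adjusted p = 4.5e-05) without overlap. Other promoters that opened were those of SMARCB1 (0.78), BICRAL (0.60), SMARCD2 (0.58), ARID1A (0.55), BICRA (0.53), SS18L1 with PSMA7 (0.44), PHF10 (0.43) and SS18 (0.40). ARID1B opened at 3 regions next to its TSSs, by 0.53, 0.51 and 0.29. The SMARCB1 promoter held 14.7, 17.8 and 17.3 CPM with vehicle and 42.1, 20.8 and 22.8 CPM with DOX, so much of its gain lay in DOX replicate 1, and the BICRAL groups overlapped. The ARID1A promoter (chr1:26695101-26698600, adjusted p = 0.000782) thus rose while the ARID1A window as a whole was not called. The promoter of SMARCD3 closed (-0.56).

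The 3 elements below carried losses in BT-549 that held in 8 of 8 alternative analyses. They are printed as 200 bases each (GRCh38, plus strand) with AP-1 motifs in capitals on either strand (TGAGTCA reads TGACTCA on the other).
BCL7A, chr12:122023551-122023750: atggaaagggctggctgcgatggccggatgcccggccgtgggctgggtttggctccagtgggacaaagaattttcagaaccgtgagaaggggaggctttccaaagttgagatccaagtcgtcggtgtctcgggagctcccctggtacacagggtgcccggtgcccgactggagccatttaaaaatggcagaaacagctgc
PBRM1, chr3:52679251-52679450: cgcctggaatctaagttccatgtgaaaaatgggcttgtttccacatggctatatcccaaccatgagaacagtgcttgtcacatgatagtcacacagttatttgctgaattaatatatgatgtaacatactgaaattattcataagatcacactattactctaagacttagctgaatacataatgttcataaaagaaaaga
ARID1B, chr6:156828451-156828650: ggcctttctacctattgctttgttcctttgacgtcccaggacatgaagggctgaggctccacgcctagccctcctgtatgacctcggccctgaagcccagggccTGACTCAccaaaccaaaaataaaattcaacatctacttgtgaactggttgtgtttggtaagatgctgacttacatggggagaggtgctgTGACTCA

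The BCL7A element (chr12:122023501-122023900) held 3.76, 4.8 and 2.87 CPM with vehicle and 0.236, 0.611 and 0.86 CPM with DOX, and fell by 2.39 ± 0.57 (adjusted p = 0.00198). The PBRM1 element (chr3:52679001-52679700), which overlaps a coding exon, held 7.9, 9.05 and 7.1 CPM against 3.23, 2.46 and 3.17 CPM and fell by 1.48 ± 0.36 (adjusted p = 0.00217). The ARID1B element (chr6:156827201-156828900) was stronger, at 42.2, 38.0 and 41.6 CPM against 27.2, 23.1 and 22.7 CPM, and fell by 0.74 ± 0.16 (adjusted p = 0.000913). All 3 closed without overlap between the groups. The PBRM1 and ARID1B elements lay within 1 kb of an annotated TSS of the gene, and the BCL7A element lay farther away.

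Further element changes in BT-549 were less stable. An ACTB element (chr7:5532701-5533300) held 3.62, 2.52 and 2.28 CPM with vehicle and 10.9, 5.44 and 4.95 CPM with DOX, and its call was lost without vehicle replicate 2, vehicle replicate 3 or DOX replicate 1. An element in the BRD9 window (chr5:861401-862300), nearest to ZDHHC11, held 7.3, 7.34 and 6.24 CPM against 13.8, 13.1 and 11.7 CPM, and its adjusted p rose to 0.0555 without vehicle replicate 3. An element in MMP11, inside the SMARCB1 window (chr22:23781501-23782000), held 6.15, 8.02 and 4.49 CPM against 3.98, 3.03 and 0.906 CPM and was lost without vehicle replicate 1, vehicle replicate 2 or DOX replicate 3. The SS18L1 element at chr20:62149201-62149600 (1.49, 1.57 and 1.9 CPM against 8.16, 5.82 and 0.554 CPM) overlapped between groups and was lost in 6 of 8 alternatives. At the bin cutoffs of the methods for this line (2-fold, adjusted p under 0.01), again with edgeR in place of DESeq2, 19 member bins opened and 40 closed, beside 2.07% and 2.87% of all bins.

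**Figure D4:**
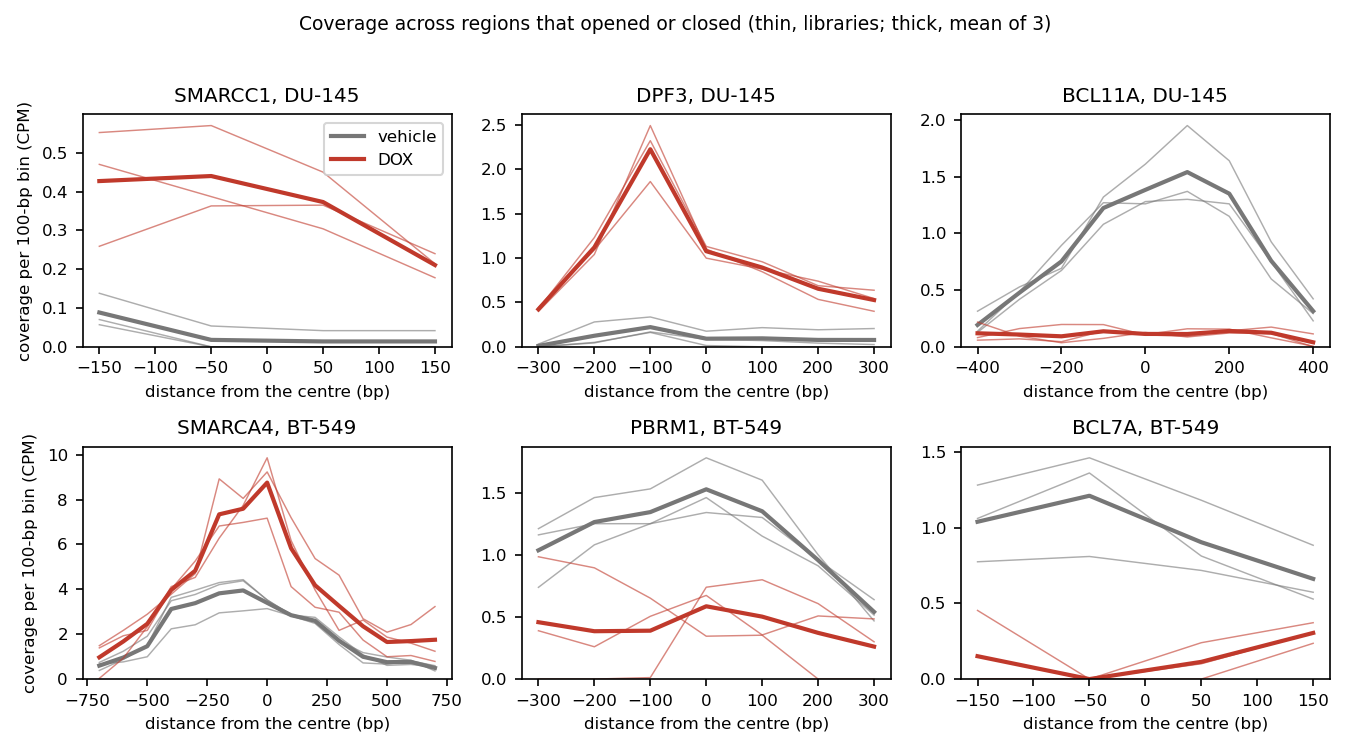
Coverage per 100-bp bin in CPM against distance in bp from the centre of 6 elements, for SMARCC1, DPF3 and BCL11A in DU-145 and SMARCA4, PBRM1 and BCL7A in BT-549; thin lines are the 3 libraries of a group and thick lines their mean. DOX and vehicle separate at each element, with DOX above at SMARCC1, DPF3 and SMARCA4 and below at BCL11A, PBRM1 and BCL7A.

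DOX acted differently on 7 subunit genes in the 2 lines. SS18, BICRAL and SMARCD2 fell in DU-145 and rose in BT-549, SMARCA4 and BICRA rose in BT-549 and were not called in DU-145, DPF3 rose in DU-145 and was not called in BT-549, and SMARCD3 fell in both lines but less in DU-145. This was tested as the effect in DU-145 minus the effect in BT-549, over the bins that both tables hold. Of 30 members, 2 were higher (6.67% against 12.1% of 14944 gene windows) and 5 lower (16.7% against 19.4%). With each line scaled by its own table, 1 was higher and 9 lower, and with loess 3 and 4. In the first test the members' median was -0.14 beside -0.07 for all genes.

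The differences were -0.81 ± 0.20 for BICRAL (adjusted p = 0.00151), -0.64 ± 0.13 for SS18 (0.000155), -0.62 ± 0.17 for SMARCA4 (0.00393), -0.54 ± 0.13 for SMARCD2 (0.00178) and -0.37 ± 0.14 for BICRA (0.0331). They were 0.71 ± 0.14 for DPF3 (adjusted p = 0.000181) and 0.39 ± 0.12 for SMARCD3 (0.01). The first 4 kept their calls in all 25 alternatives, whereas the call of DPF3 was lost with bins within 1 kb of the TSSs and that of SMARCD3 when each line was scaled by its own table. The BICRA call was the weakest, and was lost with TMM, RLE, DESeq2, limma-trend, GC correction, loess, 1 kb windows and 7 of the fits that left out a library. The PHF10 window was higher with DOX in both lines, with a difference of 0.26 ± 0.16 (adjusted p = 0.214), and the ACTB window was lower in both, with a difference of -0.03 (adjusted p = 0.858). ARID1A (-0.02) and PBRM1 (-0.06) were not called either.

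The promoters of SS18, PHF10 and SMARCA4 are printed because these genes moved in opposite directions in the lines, in the same direction in both, and in BT-549 alone. The bases before the TSS are from RefSeq (GRCh38.p14), 5′ to 3′ on the strand of the gene, without untranslated bases, with the NF-Y motif CCAAT in capitals.
SS18, chr18:26091220-26091469, minus strand: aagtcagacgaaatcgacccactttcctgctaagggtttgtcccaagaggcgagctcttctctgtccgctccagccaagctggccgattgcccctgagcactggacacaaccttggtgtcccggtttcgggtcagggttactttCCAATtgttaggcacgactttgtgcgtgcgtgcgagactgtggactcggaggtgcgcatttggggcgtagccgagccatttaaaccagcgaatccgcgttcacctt
PHF10, chr6:169724501-169724750, minus strand: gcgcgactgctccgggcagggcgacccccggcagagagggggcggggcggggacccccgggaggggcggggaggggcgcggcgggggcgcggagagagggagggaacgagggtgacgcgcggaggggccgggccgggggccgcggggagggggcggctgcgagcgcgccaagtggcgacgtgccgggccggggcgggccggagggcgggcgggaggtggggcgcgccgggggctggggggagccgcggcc
SMARCA4, chr19:10960780-10960931, plus strand: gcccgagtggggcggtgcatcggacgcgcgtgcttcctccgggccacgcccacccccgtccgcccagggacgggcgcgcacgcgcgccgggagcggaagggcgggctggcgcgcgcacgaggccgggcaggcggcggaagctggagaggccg

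Single stretches shared by both tables, an analysis chosen after the data were seen, placed these differences within the genes. Of 85 stretches, 17 had a higher effect in DU-145 (20.0% beside 27.3% of 32671 stretches) and 13 a lower one (15.3% beside 11.3%). The largest was the intronic DPF3 stretch chr14:72745601-72746200. In DU-145 it was nearly closed with vehicle (1.92, 0.561 and 0.327 CPM) and open with DOX (10.3, 8.87 and 9.33 CPM), while in BT-549 it was open in both groups (26.6, 25.6 and 24.3 CPM with vehicle, 18.8, 30.3 and 15.6 CPM with DOX). The difference was 3.65 ± 0.40 (adjusted p = 1.21e-09), and the DU-145 DOX level stayed below every BT-549 library. At the ACTB promoter (chr7:5527501-5532400) the lines diverged, with 183, 210 and 205 CPM against 135, 152 and 143 CPM in DU-145 and 185, 206 and 204 CPM against 295, 243 and 244 CPM in BT-549 (difference -0.87 ± 0.12, adjusted p = 1.08e-07). The ARID1B element at chr6:156827401-156828900 went the other way, from 52.9, 59.7 and 53.8 CPM to 72.4, 68.1 and 65.0 CPM in DU-145 and from 49.5, 44.9 and 49.4 CPM to 31.7, 25.6 and 26.1 CPM in BT-549 (1.09 ± 0.18, adjusted p = 4.05e-06). The ACTB gene body stretch next to the ACTB promoter (chr7:5522901-5527300) fell in both lines. In DU-145 it went from 76.1, 100 and 94.5 CPM to 39.8, 49.2 and 47.0 CPM. In BT-549 it went from 265, 314 and 263 CPM to 89.0, 156 and 120 CPM, and the difference was not called (0.22 ± 0.17, adjusted p = 0.317).

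Without DOX, the lines differed at most subunit genes, as they did at most gene windows, and both shares called were below those of all windows. SS18, SMARCD2, BCL7B, BCL11A and DPF1 had more coverage in vehicle-treated DU-145, and DPF3, ARID1A, SMARCC1, ACTB and SS18L1 in vehicle-treated BT-549. Of 30 members, 11 were higher in DU-145 (36.7% against 39.2% of all gene windows) and 9 lower (30.0% against 36.7%). This balance turned to 8 higher and 12 lower after GC correction, and to 9 higher and 13 lower when each line was scaled by its own table. The members' median was 0.11, beside 0.02 for all genes and 0.08 for 6542 genes of similar coverage (46.7 to 126 CPM). Both motor genes and both zinc finger genes were higher in DU-145, and 4 of 7 canonical BAF genes were lower. These vehicle libraries also serve the DOX comparisons, so the results are given side by side and are not independent.

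SS18 held 200, 185 and 186 CPM over the shared bins in DU-145 vehicle and 80.7, 66.0 and 68.9 CPM in BT-549 vehicle, a log2 difference of 1.40 ± 0.08 (adjusted p = 5.74e-17). SMARCD2 held 151, 166 and 167 CPM against 81.2, 78.7 and 79.6 CPM (1.02 ± 0.08, adjusted p = 6.3e-14). BCL7B held 108, 108 and 117 CPM against 62.8, 51.3 and 60.0 CPM (0.93 ± 0.09, adjusted p = 3.37e-11). In all 3 genes the lowest DU-145 library stood well above the highest BT-549 library. DPF3 held 45.4, 47.4 and 40.8 CPM against 85.3, 91.2 and 84.1 CPM (-0.96 ± 0.10, adjusted p = 6.12e-11), and ARID1A 163, 175 and 179 CPM against 280, 316 and 280 CPM (-0.76 ± 0.07, adjusted p = 6.8e-12). SS18L1 held 95.7, 97.3 and 89.3 CPM against 130, 148 and 138 CPM (-0.56 ± 0.08, adjusted p = 9.15e-08). These genes were lower in DU-145 without overlap. DPF1, a neuronal paralogue of DPF3, held 44.3, 51.3 and 54.4 CPM against 32.1, 31.4 and 29.4 CPM and was higher by 0.69 ± 0.11 (adjusted p = 1.94e-06). ACTB held 444, 522 and 513 CPM against 698, 780 and 718 CPM (-0.57 ± 0.07, adjusted p = 2.05e-09), a call that was lost with bins within 1 kb of the TSSs. SMARCA4, at 55.6, 56.5 and 58.8 CPM against 45.5, 50.9 and 36.8 CPM, was higher by 0.35 ± 0.11 (adjusted p = 0.00455), and this call was lost after GC correction and when each line was scaled by its own table. BRD9, at 54.3, 48.9 and 50.5 CPM against 54.5, 62.0 and 65.1 CPM, was lower by a log2 value of -0.24 ± 0.10 (adjusted p = 0.0328), but 4 of the fits that left out a library lost this call. PBRM1, at 100, 96.7 and 91.5 CPM against 116, 96.1 and 108 CPM, overlapped and was not called (adjusted p = 0.103).

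The other members called between the vehicle lines were BCL11A (0.70), BCL7A (0.51), BCL11B (0.48), SMARCA2 (0.43), ARID2 (0.37) and SMARCD1 (0.24), higher in DU-145, and SMARCC1 (-0.60), BCL7C (-0.24), SMARCD3 (-0.19) and ARID1B (-0.18), lower. SMARCC2 (0.20), BRD7 (0.19), DPF2 (0.15), SMARCB1 (0.13), SMARCE1 (0.09), ACTL6A (0.09), BICRA (-0.13), BICRAL (-0.15) and PHF10 (-0.15) were not called. BICRAL, which fell with DOX in one line and rose in the other, had mean vehicle levels of 39.9 CPM in DU-145 and 44.3 CPM in BT-549.

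Gains and losses of chromosome arms change ATAC-seq coverage over long stretches, and the copy number of these lines was not analysed here. Genes 100 kb to 5 Mb from each member were therefore set beside it. Of the 20 members called, 11 lay within the quartiles of their neighbours and 15 had the sign of the neighbours' median. SMARCD2 (1.02 beside 0.96), ARID1A (-0.76 beside -0.60), ACTB (-0.57 beside -0.64), SMARCC1 (-0.60 beside -0.58) and SS18L1 (-0.56 beside -0.54) lay close to their surroundings. Also within the quartiles were DPF1 (0.69 beside 0.69), BCL11B (0.48 beside 0.53), SMARCA4 (0.35 beside 0.28), SMARCD1 (0.24 beside 0.12), ARID2 (0.37 beside 0.13) and BCL7A (0.51 beside 0.84). BCL11A (0.70 beside 0.94) had the sign of its neighbours but lay below their lower quartile, 0.79. SS18 (1.40), BCL7B (0.93) and ARID1B (-0.18) had the sign of their neighbours and lay above the upper quartiles, 1.07, 0.81 and -0.27. DPF3 (-0.96 beside 0.49), SMARCA2 (0.43 beside -0.75), BCL7C (-0.24 beside 0.41), SMARCD3 (-0.19 beside 0.18) and BRD9 (-0.24 beside 0.11) went against theirs. Neighbours do not show a copy number change limited to the gene itself. Copy number and accessibility therefore cannot be told apart for any of these members.

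**Figure D5:**
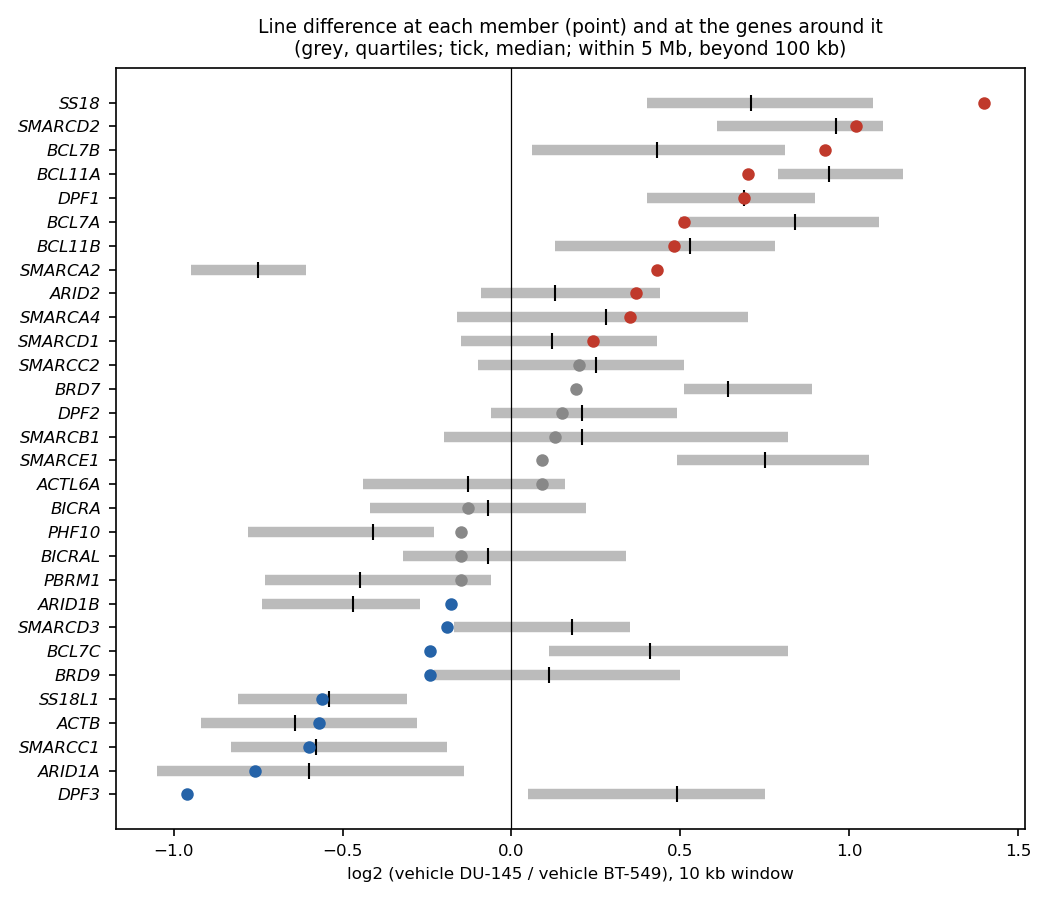
Log2 difference of window coverage between vehicle DU-145 and vehicle BT-549 for 30 members (points, red or blue where called); the grey bar spans the quartiles of genes within 5 Mb but beyond 100 kb, and the tick is their median. SS18 (1.40) lies above its bar, and DPF3 (-0.96) lies on the opposite side of 0 from its neighbours (0.49).

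Other remodelling complexes are set beside the SWI/SNF genes for comparison. The ISWI, INO80 and SRCAP/EP400 families slide nucleosomes or exchange histone variants. Of 35 genes of these families, 2 rose with DOX in DU-145 (5.71%, against 16.3% of all gene windows). In that line 16 fell (45.7%, against 33.3%), 8 of them among the 10 ISWI genes, and the median was -0.13. In BT-549, 7 of 34 rose (20.6%, against 18.4%) and 1 fell (2.94%, against 10.3%), with a median of 0.15. Between the vehicle lines 21 of 34 were higher in DU-145 (61.8%, against 39.2%) and 4 lower (11.8%, against 36.7%), with a median of 0.37. For the difference of the DOX effects 2 were higher (5.88%, against 12.1%) and 11 lower (32.4%, against 19.4%), with a median of -0.26.

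Of the motifs searched, AP-1 was less frequent in member elements than in all regions, and NF-Y was about as frequent. Member regions more often lay near a TSS, and the shares were not matched for this. In DU-145, 52 of 127 lay within 1 kb of a TSS of the member, against 18476 of 79177 regions near any protein-coding TSS. In BT-549 these counts were 49 of 90 and 15976 of 46298. Of the DU-145 member regions that closed, 18 of 29 were at a TSS. AP-1 (TGAGTCA, both strands) was present in 18 of 127 DU-145 member regions (14.2%, against 26.9% of all DU-145 regions), in 10 of 32 that opened (31.2%, against 40.6% of all that opened) and in 0 of 29 that closed (against 14.5%). In BT-549 it was present in 6 of 90 (6.67%, against 14.8%). TEAD (GGAATG) was present in 17 of 127 DU-145 member regions (13.4%, against 16.1%), NF-Y (CCAAT) in 30 (23.6%, against 23.7%) and E2F (TTTCCCGC or TTTGGCGC) in 3 (2.36%, against 0.695%). Of the promoters, 26 of 31 members matched a RefSeq entry, and 12 of these held the NF-Y motif CCAAT (46.2%, against 32.0% of 35116 promoters). Each member was counted at 1 entry, not always at its canonical TSS, and the set of all promoters was not reduced in this way. Among the 12, the BICRAL entry (chr6:42746737-42746986) lay outside the summed BICRAL window. The BCL11A entry (chr2:60528536-60528785) was not at the canonical TSS. The E2F motif was present in 1, BRD7 (against 1.93% of all promoters), and AP-1 in 1, SMARCB1 (against 4.2%), while the ETS motif CCGGAAGT, the CRE motif TGACGTCA and TEAD were in none, against 3.42%, 1.65% and 11.9% of all promoters. A match of letters is a description and not a bound site.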

How the data were processed

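ATAC-seq libraries of DU-145 and BT-549 cells were taken as deposited. Per the labels and the study's methods, reads were aligned with BWA to GRCh38, duplicates were marked with Picard and peaks were called per library with MACS2 2.2.7.1. The authors deposited, for each line, a table of estimated counts (mean coverage per library in 100-bp bins, not whole numbers), which were rounded before testing and scaled by each library's sum. From the deposited peak lists, the fold enrichment, the −log10 p-value and the −log10 q-value were used only to count peaks at TSSs. The tables hold different bins (709366 and 472994, of which 321392 are shared), so the lines were compared over shared bins only.

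Windows with a summed value under 10 were dropped. DOX was compared with vehicle in each line, and vehicle DU-145 with vehicle BT-549, with edgeR 4.0.16 (quasi-likelihood, robust, R 4.3.3) and Benjamini-Hochberg adjustment over all windows or regions at 0.05. The code was tested on simulated data. Alternatives were TMM, RLE and loess scaling, DESeq2 1.42.0, limma-trend, GC correction, no filter, 1 kb windows, the replicate block and leaving out each library. Values in every library were given for ARID1A, SMARCA4, PBRM1 and BRD9, for the 4 members with the smallest adjusted p in each direction of a comparison, and for the 4 regions per line with the largest gains and losses; values of other members were added after they were seen. Members and gene lists were chosen with earlier results of these data known. Window sums can hold other genes' promoters (SMARCB1, SMARCD1, SMARCD2, SMARCD3, ACTL6B, BCL7C, ARID1A, DPF2, SS18L1, PBRM1, BRD7 and BRD9). An element that this rule names is not reported here.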

Additional observations from a re-analysis of the deposited data

Results flagged for a closer look

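The DOX effect on 7 SWI/SNF subunit windows differed between DU-145 and BT-549 by the test of the difference itself (edgeR's quasi-likelihood interaction term, adjusted over 14944 windows, 3 libraries per group). The effect in DU-145 minus that in BT-549 was 0.71 ± 0.14 (SE) on the log2 scale for DPF3 (adjusted p = 0.000181) and 0.39 ± 0.12 for SMARCD3 (adjusted p = 0.01). It was -0.81 ± 0.20 for BICRAL (adjusted p = 0.00151), -0.64 ± 0.13 for SS18 (adjusted p = 0.000155), -0.62 ± 0.17 for SMARCA4 (adjusted p = 0.00393), -0.54 ± 0.13 for SMARCD2 (adjusted p = 0.00178) and -0.37 ± 0.14 for BICRA (adjusted p = 0.0331), whose call was lost with TMM, RLE, DESeq2, limma-trend, GC correction, loess and 1 kb windows. Of all windows, 12.1% were higher and 19.4% lower in this test. The BT-549 DOX libraries were the shallowest (summed coverage of 2.503 to 3.267 in units of 1000000), and the part of depth in these differences was not tested.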

How the results depend on the processing

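Counts of called members moved with scaling, GC correction, window width and the libraries used. In DU-145, members called higher with DOX (4) numbered 9 with TMM, 9 with RLE, 8 with DESeq2, 9 with GC correction, 9 with loess, 9 with the replicate block and GC correction together, and 2 to 6 on leaving out a library. Those called lower (10) numbered 6 with loess and 7 to 10 on leaving out a library. In BT-549, members called higher (7) numbered 3 with GC correction, 4 with the block and GC correction, and 4 to 7 on leaving out a library, and those called lower (2) numbered 1 with 1 kb windows and 1 in every fit that left out a library. Between the vehicle lines, 11 higher became 9 to 12 and 9 lower became 6 to 10 on leaving out a library, and the lower count was 5 with 1 kb windows. For the difference of DOX effects, the higher count (2) was 1 with 1 kb windows, 5 with the block and GC correction, and 1 with each line's own table as scale, and the lower count (5) was 8 with 1 kb windows, 9 with own tables and 4 to 7 on leaving out a library. Counted in another unit, as shared stretches and not genes, 17 were higher and 13 lower. Scaling by own tables moved the median of all genes from 0.02 to -0.113 between the lines and from -0.0749 to -0.252 for the difference. DU-145 regions that opened (32) numbered 21 with TMM, and BT-549 regions that closed (8) numbered 5 with TMM and 4 to 9 on leaving out a library. Single bins at the cutoffs of the methods are another unit, of which 21 opened in DU-145 and 40 closed in BT-549. With 1 kb windows the sign turned for BRD9 in DU-145 (-0.03), ACTB in BT-549 (0.26) and BRD9 between the lines (0.05). The cause of these changes was not tested. Replicate numbers did not pair the samples (correlations of same-numbered deviations 0.189, 0.0927 and -0.0249 in DU-145, -0.007, 0.139 and 0.0327 in BT-549, and 0.0711, 0.013 and -0.0939 across lines), and not every sample correlated best with its own number. With a replicate block, members called higher and lower were 4 and 10 in DU-145, 7 and 2 in BT-549, 11 and 9 between the lines, and 2 and 7 for the difference, with 31 DU-145 regions opening and 30 closing and 15 and 7 in BT-549. Depth was lowest in the BT-549 DOX libraries.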
